A study of Arabidopsis thaliana with 6 samples.

Results

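TSO2 and TK1A are nuclear genes of Arabidopsis thaliana that act in the supply of DNA precursors, and each was read here by 1 probe set of the ATH1 array, an oligonucleotide array in which a group of short probes measures a transcript. They are 2 of the 22746 probe sets that are not Affymetrix controls. With the array's name written before the probe set, ATH1.257809_at stands for TSO2 (locus AT3G27060) and ATH1.259224_at stands for TK1A (locus AT3G07800). The platform annotation used here left both unnamed, so the pairing of probe set and gene rests on the list of members, and the RefSeq gene table of TAIR10.1 holds both loci under these names, on chromosome 3. The pair was selected on the measured difference in signal between the atm mutant and the wild type arrays. This genotype difference is therefore described without a test of significance.

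Ribonucleotide reductase makes deoxyribonucleotides from ribonucleotides, and it is built of large and small subunits. TSO2 encodes a small subunit, and tso2 mutants of Arabidopsis are known for abnormal leaves and flowers. Thymidine kinase adds a phosphate to thymidine and so recovers it for DNA synthesis, and TK1A encodes a thymidine kinase. Both activities are needed most where DNA is replicated or repaired. ATM is the protein kinase that signals DNA double-strand breaks, and in plants it is known to drive much of the transcriptional response to ionising radiation.

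RNA came from whole plants at growth stage 1.04, and each of the 6 samples was hybridised to 1 array. The 3 arrays of the mutant are titled atm, with the source name ATM1 and the genotype AtATM3 mutant, and the labels state no strain for them. The 3 wild type arrays are of the accession Col0. Seedlings of both genotypes were grown on agar plates at 22 °C with 9 h of light and 15 h of darkness. The study set out, by its title, to find X-ray induced transcripts under the control of ATM. However, no irradiation, dose or time is given in the labels for either genotype, so any treatment that both genotypes shared is not known here. Whether the replicates are separate cultures is not stated either, and p-values may then measure technical spread only. No probe set is named for ATM in the annotation, so the genotype was not checked at its own transcript.

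The median MAS5 signal lay between 40.01 and 41.33 over the 6 arrays. Atm mutant replicate 2 and wild type replicate 1 stood apart from the rest. Over the tested probe sets their deviations from the genotype means correlated at 0.647, and the control probe set for 25S ribosomal RNA read 2123 and 836 on them, while the remaining arrays gave 4106 to 5400. Values are therefore also given without them. The labelled tissue held root and leaf transcripts in both genotypes, though only 3 of 6 root markers and 1 of 6 leaf markers were named on the array. PYK10, a root beta-glucosidase, had a signal of 3344 ± 365 in the atm mutant and 3170 ± 186 in the wild type, and RCA, Rubisco activase of leaves, had 5174 ± 347 and 4946 ± 1084 (SD, n = 3 each, atm mutant first). Their log2 differences of 0.07 and 0.08 did not pass the test. Neither did those of the other tested root markers, the root hair expansins EXPA7 at -0.18 (SE 0.30) and EXPA18 at -0.06 (SE 0.23), whose signs turned without some single arrays. The sign of RCA also turned without 1 array. EXPA7 was dim, between the 36.6 and the 52.6 percentile of its array. In whole plants, fewer cells of a type and less RNA per cell cannot be told apart.

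TSO2 was about 16-fold lower in the atm mutant. Its signal was 250.7, 158.8 and 263.6 on atm mutant replicates 1, 2 and 3, against 3586, 3201 and 3786 on wild type replicates 1, 2 and 3. All 3 atm mutant arrays lay far below all 3 wild type arrays, and atm mutant replicate 2, one of the arrays that stood apart, was the lowest. The means were 224 ± 57.2 in the atm mutant and 3524 ± 297 in the wild type (SD, n = 3 each). The log2 difference, atm mutant minus wild type, was -4.01 (SE 0.20), a ratio of geometric means of 16.1. Taking each atm mutant array against each wild type array, the 9 ratios ran from 12.1-fold to 23.8-fold lower.

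TK1A was about 8-fold lower in the atm mutant. Its signal was 201.2, 196.3 and 218.7 on atm mutant replicates 1, 2 and 3, against 1632, 1628 and 1668 on wild type replicates 1, 2 and 3. The genotypes did not overlap, and within each the arrays were close together. The means were 205 ± 11.8 in the atm mutant and 1643 ± 22.3 in the wild type (SD, n = 3 each). The log2 difference was -3.0 (SE 0.11), a ratio of geometric means of 8.01. The 9 ratios between single arrays ran from 7.44-fold to 8.50-fold lower.

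**Figure D1:**
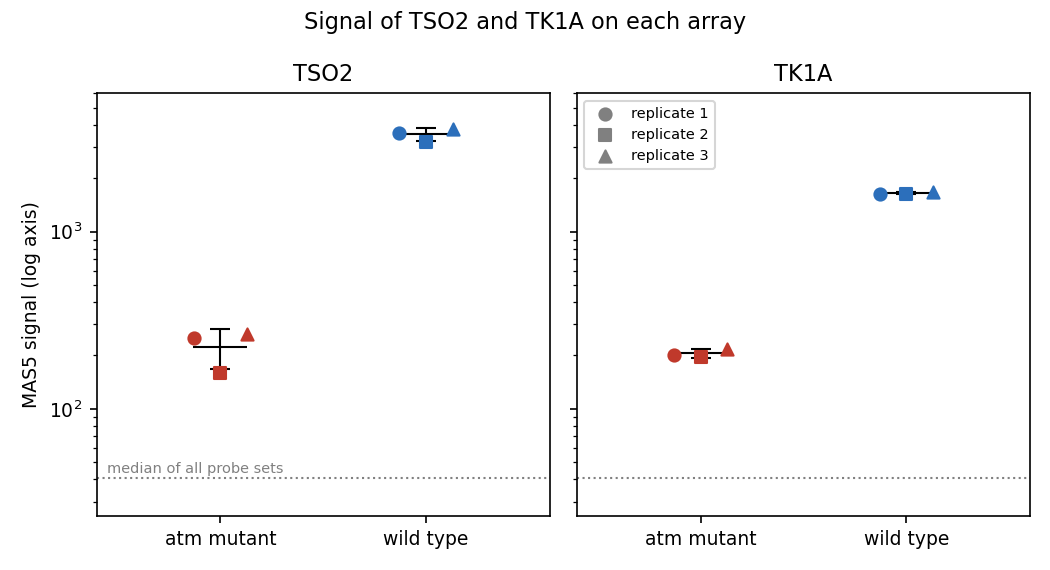
MAS5 signal of TSO2 and TK1A on each array, on a log axis. Points are arrays, marked by replicate number, horizontal lines and bars are the mean and SD of 3 arrays, and the dotted line is the median signal of all probe sets. The atm mutant arrays lie at 158.8 to 263.6 for TSO2 and 196.3 to 218.7 for TK1A, below all wild type arrays and above the dotted line.

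Both transcripts were still well measured in the atm mutant. The TSO2 probe set lay between the 81.0 and the 88.6 percentile of its array in the mutant, against the 99.7 to 99.8 percentile in the wild type. The TK1A probe set lay between the 84.6 and the 86.2 percentile in the mutant, against the 98.7 to 98.9 percentile in the wild type. Neither value therefore sat at the low end of the scale, where MAS5 signals are noisy. Adding a pseudocount equal to the 40th percentile of the signal, 25.3, left the log2 differences at -3.85 for TSO2 and -2.86 for TK1A. By ratio of geometric means, the mutant kept 6.23% of the wild type signal of TSO2 and 12.5% of that of TK1A.

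Seen over the whole array, both were among the widest differences. Of the 13895 probe sets that passed the filter on dim signals, 16 were at least 8-fold lower in the atm mutant, which is 0.115%. Ordered by log2 difference, TSO2 was number 8 and TK1A number 16 from the lowest. Some genes placed above TSO2 were near background in the mutant, where AT3G42860 averaged 3.08 and AT1G59660 2.76. With the pseudocount, their log2 differences were -1.50 and -1.39, against -4.20 each without it, so the exact places rest partly on such low values. Among the 1023 tested probe sets with a mean log2 signal of at least 9.18, that of TK1A, only TSO2 and TK1A were below -2. The other differences ran from -0.95 to 1.08 with a median of 0.04. This cut was taken from the pair itself, and on every atm mutant array both genes read below it. It leaves out genes such as AT5G48020, at -2.52, so it does not set the pair apart. All 3 atm mutant arrays were below all 3 wild type arrays in 4.85% of the tested probe sets, and both genes are among these. Limma, a linear model that shares the spread across probe sets, called 31 of the 13895 (0.223%) at a Benjamini-Hochberg adjusted p under 0.05, 31 of them with the lower signal in the mutant. Since this contrast chose the pair, its place in that order supports nothing further.

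**Figure D2:**
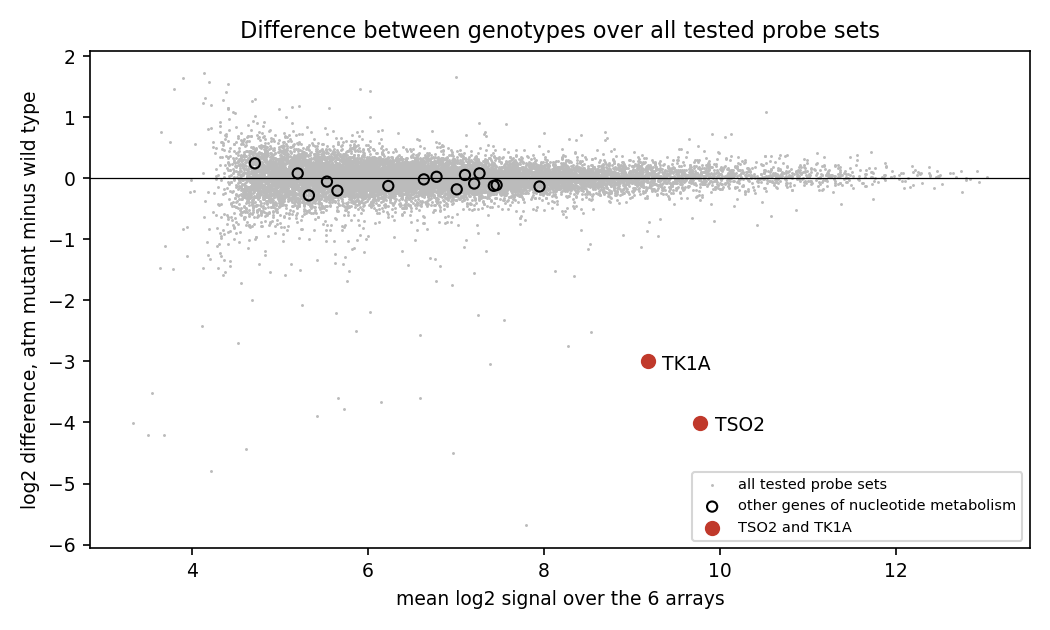
Log2 difference, atm mutant minus wild type, against the mean log2 signal over the 6 arrays for all 13895 tested probe sets (grey), with 15 other genes of nucleotide metabolism (open circles) and TSO2 and TK1A (red). TSO2 lies at -4.01 and TK1A at -3.0, and the open circles lie between -0.28 and 0.24.

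The spread between arrays of a genotype was unlike in the 2 genes. It is a description, since a choice by significance would also favour probe sets with a small spread, and the measure behind the choice is not known beyond the genotype contrast. The within-genotype SD of log2 signal was 0.298 for TSO2 and 0.0596 for TK1A, against a median of 0.228 over all tested probe sets. For TK1A it was at the 1.58 percentile of the tested probe sets, and at the 3.58 percentile of the 867 whose mean log2 signal was within 0.5 of its own. For TSO2 it was at the 67.3 percentile, and at the 79.2 percentile of the 552 probe sets chosen in the same way. The means used for this choice, 9.78 for TSO2 and 9.18 for TK1A, are over both genotypes. They lie between the 2 levels, and neither gene read near its mean on any array. Most of the spread of TSO2 came from the mutant, where the SD of log2 signal was 0.403, against 0.124 in the wild type. TK1A had an SD of 0.0821 in the mutant and 0.0195 in the wild type.

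Of the 2 arrays that stood apart, atm mutant replicate 2 was low for TSO2, and wild type replicate 1 was close to its genotype mean for both genes. TSO2 deviated from the mean log2 signal of its genotype by 0.20, -0.46 and 0.27 on atm mutant replicates 1, 2 and 3, and by 0.03, -0.14 and 0.11 on wild type replicates 1, 2 and 3. TK1A deviated by -0.03, -0.06 and 0.09 on the atm mutant arrays and by -0.01, -0.01 and 0.02 on the wild type arrays. In both genotypes, replicate 2 was the lowest and replicate 3 the highest for both genes, though wild type replicates 1 and 2 were almost alike for TK1A. Within the pair of arrays that stood apart, TSO2 was 22.6-fold and TK1A 8.31-fold lower in the atm mutant. Within the other 4 arrays TSO2 was 13.5-fold and TK1A 7.86-fold lower. The first of these comparisons is of 1 array against 1, and the arrays of both subsets were among those that chose the pair, so the values are a description. The GAPDH control, read at both ends of the transcript, had 3' to 5' signal ratios of 1.40 to 1.56 on the atm mutant arrays and 1.08 to 1.41 on the wild type arrays, and the part of RNA quality in the differences was not tested.

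TSO2 had the wider change of the pair. Its log2 difference was 1.00 below that of TK1A, which makes its fold change 2.01 times as large. On each of the 18 alternative settings TSO2 stayed the wider of the 2, with log2 differences from -4.14 to -3.76, against -3.05 to -2.86 for TK1A. Several of the settings could not move these estimates. Among them were the other filters, the raising of the lowest signals and the other variance models. The replicate block and the term for the 2 arrays that stood apart are balanced over the genotypes, so they could not move them either. Leaving out atm mutant replicate 2 gave -3.77 for TSO2 and -2.97 for TK1A.

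**Figure D3:**
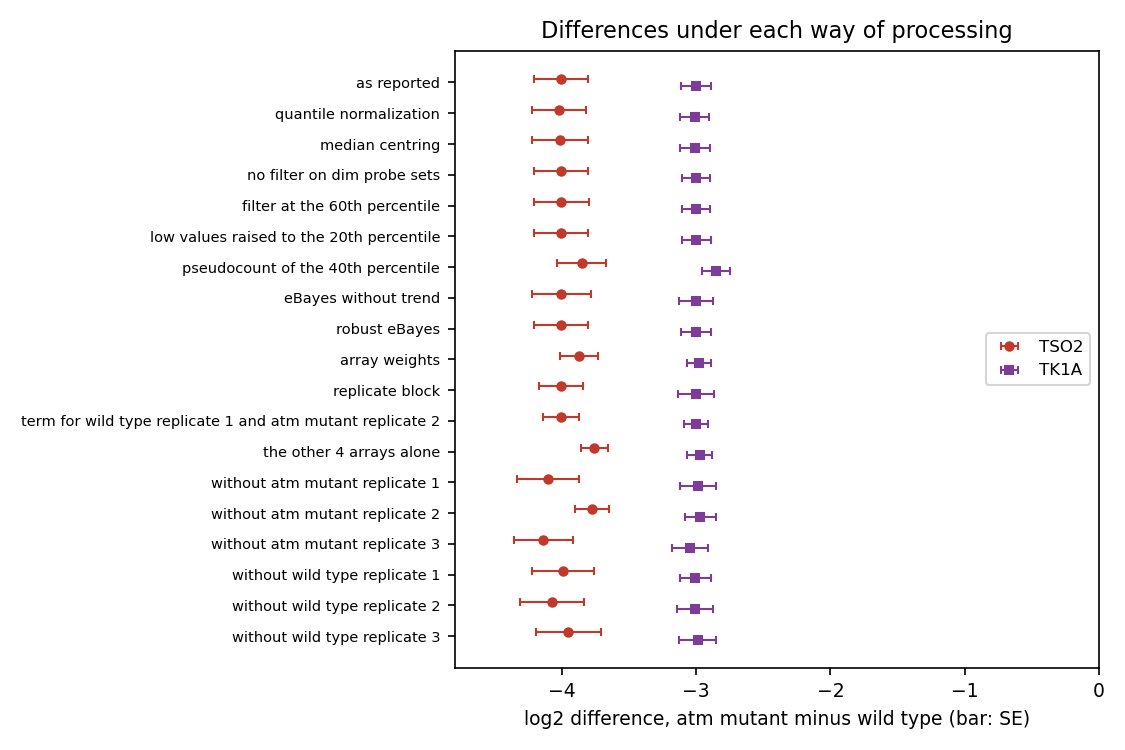
Log2 difference, atm mutant minus wild type, of TSO2 (circles) and TK1A (squares) as reported and under 18 alternative settings, with bars of 1 SE from limma. TSO2 stays between -4.14 and -3.76 and TK1A between -3.05 and -2.86, so that the 2 genes do not meet under any of them. Several of the settings, among them the other filters, the variance models and the replicate block, cannot move the difference.

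Other genes of nucleotide metabolism were looked at as lists of loci by step of the pathway. Of 76 such genes 19 were named on the array and 15 passed the filter. Limma, with adjustment over all tested probe sets, called 0 of the 15, against 0.223% of all tested probe sets. Of the 15, 0 had an unadjusted p under 0.05 in limma, against 467 of the 13895 probe sets (3.36%). Their log2 differences ran from -0.28 to 0.24 with a median of -0.09, beside a median of 0.01 over all tested probe sets. The 95% confidence intervals of the 15 differences reached no lower than -0.79 and no higher than 1.28. None of them reached the -3.0 of TK1A, but only 0.115% of all tested probe sets were at least 8-fold lower in the mutant. As the contrast chose the pair, this does not set these genes apart from other probe sets. The genotypes did not overlap in 2 of the 15, against 8.66% of all tested probe sets.

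The steps nearest to the pair had no other gene that passed the filter. Of the list of ribonucleotide reductase and its control, 1 of 4 other genes was named on the array, and of the list of deoxyribonucleoside salvage and thymidylate synthesis 2 of 9. The other ribonucleotide reductase subunits RNR1, RNR2A and RNR2B and the second thymidine kinase gene TK1b were not among the named probe sets and are not analysed here. AT5G40270, related to the dNTP-degrading enzyme SAMHD1 of humans, had a signal of 18.9 ± 2.51 in the atm mutant and 16.3 ± 8.75 in the wild type (SD, n = 3 each). AT3G48540, which encodes a deoxycytidylate deaminase, had 20.4 ± 10.1 in the mutant and 15.0 ± 0.900 in the wild type. AT2G21550, of the dihydrofolate reductase and thymidylate synthase family, had 22.9 ± 8.35 in the mutant and 19.3 ± 3.16 in the wild type. All 3 were too dim to pass the filter, and their genotypes overlapped.

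Kinases that raise nucleotides to di- and triphosphates gave 4 tested genes, of which limma called 0, against 0.223% of all tested probe sets. AT3G06200, a guanylate kinase gene, had a log2 difference of -0.20 (SE 0.17), and AT4G25280, of the UMP/CMP kinase family, had -0.13 (SE 0.13). AT5G50370, of the adenylate kinase family, had 0.05 (SE 0.26), and AT3G60180, of the UMP/CMP kinase family, had 0.02 (SE 0.16), both with signs that turned without some single arrays. For the pyrimidine pathway 4 of 5 named genes were tested and 0 called, against the same 0.223%. PYRB, which encodes aspartate transcarbamoylase of the early pathway, had a signal of 122 ± 23.0 in the atm mutant and 138 ± 19.2 in the wild type (SD, n = 3 each), a log2 difference of -0.18 (SE 0.19). The CTP synthase genes AT1G30820 and AT4G20320 had -0.13 (SE 0.25) and 0.24 (SE 0.44), and both signs turned when some single arrays were left out.

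Purine synthesis had 5 tested genes and 0 called, against 0.223% of all tested probe sets. AT2G35040, which encodes the enzyme of the last steps to IMP, had a signal of 170 ± 6.42 in the atm mutant and 184 ± 25.6 in the wild type (SD, n = 3 each), a log2 difference of -0.11 (SE 0.14). AT1G63660, a GMP synthase gene, had 0.08 (SE 0.13), and AT1G16350, an IMP dehydrogenase gene, had -0.09 (SE 0.13). Of the salvage, breakdown and transport list 2 of 26 genes were named and tested, and 0 were called, against the same 0.223%. HGPT, hypoxanthine-guanine phosphoribosyltransferase, had 36.5 ± 3.06 in the mutant and 44.5 ± 6.50 in the wild type, a log2 difference of -0.28 (SE 0.19). UPP, uracil phosphoribosyltransferase, had -0.12 (SE 0.24). In limma the adjusted p was 1.00 after rounding for each of these genes.

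**Figure D4:**
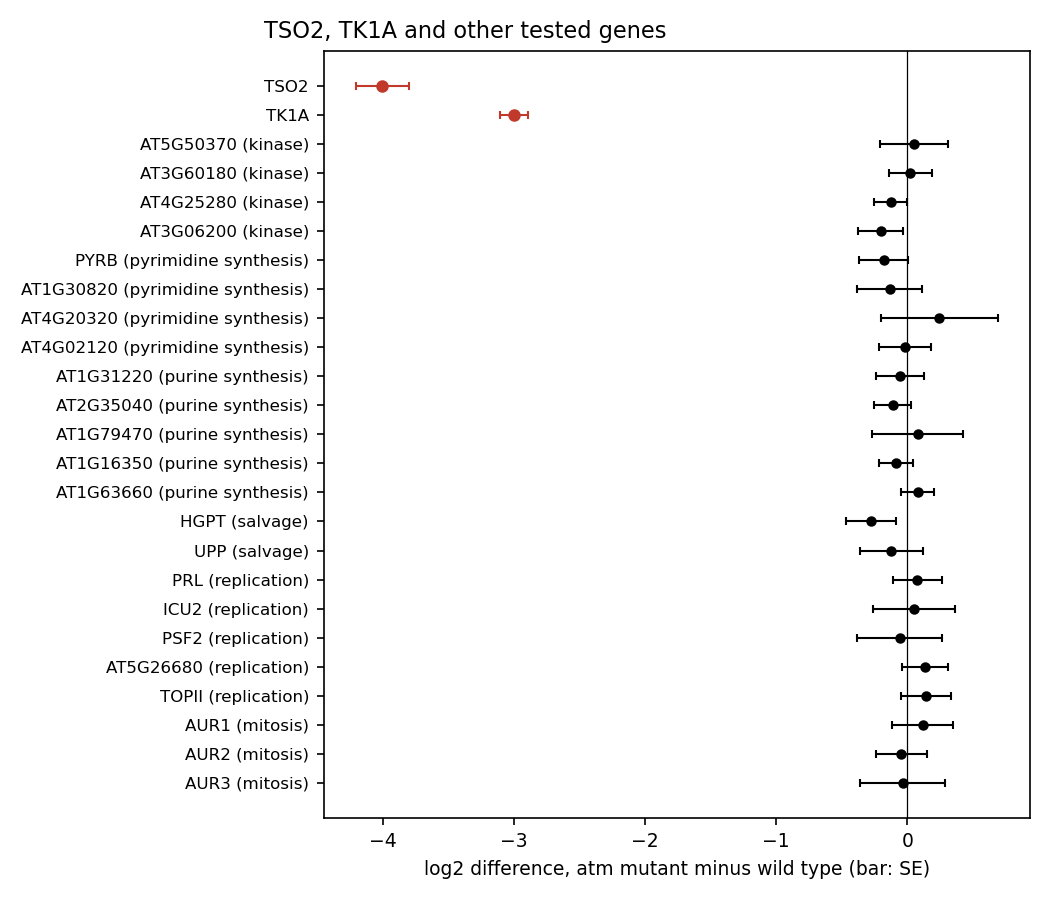
Log2 difference, atm mutant minus wild type, with SE from limma, for TSO2 and TK1A (red) and for the 23 other tested genes of nucleotide metabolism, replication and mitosis (black). TSO2 and TK1A lie at -4.01 and -3.0, and the other genes between -0.28 and 0.24.

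Transcripts of dividing cells gave a further reference, since TSO2 and TK1A serve DNA replication. Of 48 S phase and replication genes 6 were named and 5 tested, and limma called 0, against 0.223% of all tested probe sets. TOPII, topoisomerase II, had a log2 difference of 0.14 (SE 0.19), AT5G26680, related to the flap endonuclease FEN1, had 0.14 (SE 0.18), PRL, the MCM7 subunit of the replicative helicase, 0.08 (SE 0.19), and PSF2, a GINS complex subunit, -0.06 (SE 0.33). Of 14 genes of G2 and mitosis 3 were named, all Aurora kinases, and limma called 0. AUR1 had a signal of 82.0 ± 5.32 in the atm mutant and 78.1 ± 23.9 in the wild type (SD, n = 3 each), and the log2 differences of AUR1, AUR2 and AUR3 were 0.12 (SE 0.24), -0.05 (SE 0.19) and -0.04 (SE 0.33). The 95% intervals of these 8 genes reached no lower than -0.81. With 0.223% called over all tested probe sets, 0 of 8 does not set them apart from other probe sets. Whether a change in the number of dividing cells took part in the difference of the pair was not tested, since 53 of the 62 loci of these lists had no named probe set.

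Of the genes beside the pair on chromosome 3, those that could be tested had smaller differences than the pair, as did nearly all tested probe sets. Among the 2 protein-coding genes on each side of each gene, 5 of 8 were named on the array and 4 passed the filter, 1 beside TSO2 and 3 beside TK1A. Limma called 0 of the 4, against 0.223% of all tested probe sets. The signal was lower in the mutant for 3 of the 4, against 6687 of the 13895 tested probe sets. AT3G27050, next to TSO2, had a signal of 118 ± 46.2 in the atm mutant and 145 ± 8.91 in the wild type (SD, n = 3 each). Its log2 difference was -0.36 (SE 0.25). It was called at -0.62 in the fit to 4 arrays, which called 233 of the 13895 tested probe sets. Next to TK1A on one side, AT3G07790 had 212 ± 20.4 in the mutant and 193 ± 10.3 in the wild type, a log2 difference of 0.14 (SE 0.13). On the other side, AT3G07810 had 87.9 ± 10.4 in the mutant and 117 ± 12.7 in the wild type, a log2 difference of -0.41 (SE 0.15), with an unadjusted p of 0.0265 and an adjusted p of 1.00 after rounding in limma. OBE1, 2 genes from TK1A, had -0.37 (SE 0.18). These neighbours were chosen after the values of the pair had been seen.

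The signals of the pair over the 6 arrays fall into 2 levels, 1 for each genotype, and likeness to them was measured by correlation. With such levels a correlation depends mostly on the size of the genotype difference relative to the spread within a genotype. The log2 signals of TSO2 and TK1A had a Pearson r of 0.995 over the 6 arrays, and of the other 13894 tested probe sets 3 were more like TSO2 than TK1A was. Among the 7454 tested probe sets with 1 named gene, AT2G45460, which encodes a protein with an FHA domain, came first for both, with r of 0.993 to TSO2 and 0.999 to TK1A. AT1G59660, related to nucleoporins, had r of 0.992 to TSO2, and AT3G42860, a zinc knuckle gene, had 0.986 to TSO2 and 0.994 to TK1A. AT5G48020, of the 2-oxoglutarate-dependent oxygenases, had 0.985 to TSO2 and 0.994 to TK1A. AT4G25580 had 0.990 and AT2G40960 0.992 to TK1A. AT2G40960 had a log2 difference of only -0.38, which limma did not call (adjusted p of 1.00 after rounding), while that of AT2G45460 was -3.61. The arrays and the genotype contrast are shared by all of these, so the values describe the pattern only.

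AT5G49990, of the xanthine and uracil permease family, was also among the 5 named genes most like TSO2, with r of 0.987. Its signal was 94.0 ± 2.43 in the atm mutant and 146 ± 6.68 in the wild type (SD, n = 3 each), a log2 difference of -0.64 (SE 0.12). In limma its adjusted p was 0.195, so it was not called over all 6 arrays. It was called with array weights and with a term for the 2 arrays that stood apart, at -0.61 and -0.64. These settings called 73 and 108 of the 13895 tested probe sets, against 31 as reported.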

How the data were processed

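The values the authors deposited are linear signal intensities, 1 for each probe set on each array. The submitters' processing notes name MAS5 and GCOS as the software, and the scaling target and detection calls are not given in the sources used here. MAS5 sets 1 scaling factor per array, so differences in the shape of the distribution remain.

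Intensities were taken to log2 with no pseudocount. The 64 control probe sets were left out, and a probe set was tested where it exceeded the 40th percentile of its array on at least 3 of 6 arrays, which left 13895. The genotype difference (atm mutant minus wild type) came from limma 3.58.1 under R 4.3.3 (lmFit, eBayes with trend, no block, two-sided, Benjamini-Hochberg over all tested probe sets, threshold 0.05), and the code was tested on simulated data. An exact permutation test of 3 against 3 arrays cannot go below 0.1. The number of arrays limits the precision.

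Of 22746 probe sets, 13513 had 1 gene in the platform annotation, 503 several, and 8730 were unnamed. Of those with 1 gene, 13436 matched the RefSeq table by gene ID. From each list up to 4 genes with the smallest p were named, as none was called, and the 5 most alike in pattern by Pearson r. The members and lists were chosen with earlier results of these data known. Alternatives were other scalings, filters, low-value treatments, variance models, array weights, a replicate block, a term for or removal of the 2 arrays that stood apart, and leaving out each array. Deviations of same-numbered arrays correlated at -0.461, -0.46 and 0.379, so the numbers were not taken to pair the samples.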

Additional observations from a re-analysis of the deposited data

How the results depend on the processing

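Under all 18 alternatives TSO2 and TK1A stayed lower in the atm mutant, with 3 arrays per genotype as the limit on precision. Some of the alternatives, such as the other filters and variance models, could not change the log2 differences of the pair. Leaving out 1 array at a time gave log2 differences of -4.14 to -3.77 for TSO2 and -3.05 to -2.97 for TK1A. With a pseudocount of the 40th percentile TK1A was at -2.86, since a constant added to both genotypes shrinks a ratio. The number of probe sets called, 31 as reported, was 73 with array weights, 11 with the replicate block, 108 with the term for the 2 arrays that stood apart, 233 with the other 4 arrays alone, and 13 to 36 without 1 array, with 13 both without wild type replicate 2 and without wild type replicate 3, and the cause was not tested. The replicate block left the log2 differences of TSO2 and TK1A at -4.01 and -3.0. It could not do otherwise, since each replicate number holds 1 array of each genotype. Of the list genes 0 were called under every alternative run. Some of their small differences changed sign without 1 array. Over those fits AT5G50370 ran from -0.16 to 0.30, AT3G60180 from -0.12 to 0.12, AT4G20320 from -0.13 to 0.57, AT1G30820 from -0.34 to 0.094, AT4G02120 from -0.17 to 0.18, AT1G31220 from -0.15 to 0.066, UPP from -0.33 to 0.079, PRL from -0.022 to 0.24, PSF2 from -0.43 to 0.13, AUR1 from -0.15 to 0.31, AUR2 from -0.17 to 0.087, AUR3 from -0.33 to 0.15, EXPA7 from -0.32 to 0.078, EXPA18 from -0.25 to 0.10 and RCA from -0.034 to 0.26. AT4G02120 was also at 0.083 with array weights, and AUR1 at -0.094 with the other 4 arrays alone.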

Other observations

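Likeness in the deviations from the genotype means, into which the genotype difference does not enter, named other genes than likeness in the signal. TSO2 and TK1A had an r of 0.743 by this measure over the 6 arrays. Of the other tested probe sets, 10.3% had a higher r to TSO2 and 5.22% a higher r to TK1A. These r rest mostly on the 3 atm mutant arrays. There the SD of log2 signal was 0.403 for TSO2 and 0.0821 for TK1A, against 0.124 and 0.0195 in the wild type. The named genes most like TSO2 were POL, the phosphatase gene POLTERGEIST, with r of 0.996, AT3G61550 with 0.994, AT4G26490 with 0.992, AT1G06380 with 0.992 and AT5G48240 with 0.991. Those most like TK1A were AT1G05205 with 0.996, AT2G47830 with 0.989, AT3G61490 with 0.976, AT1G52930 with 0.971 and AT1G73110 with 0.969. Their log2 differences, atm mutant minus wild type, ran from -0.31 to 0.25. Limma called 0 of the 10, against 0.223% of all tested probe sets. These are the highest of 7454 values over 6 arrays, in which the deviations sum to 0 within a genotype, so they are given as a description only. With quantile normalization or the pseudocount they went as low as 0.910, for AT4G26490 with TSO2, and 0.841, for AT2G47830 with TK1A.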
